A study of Mus musculus with 14 samples.

Results

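H3K27me3, a mark laid on histone H3 by Polycomb repressive complex 2, was compared between cerebellum at postnatal day 14 (P14) and postnatal day 7 (P7). Of the 14 libraries in the series, the 6 libraries labelled P14 or P7 were taken, 3 per stage. The mice were C57BL/6NCrl without a targeted allele, both sexes were used, and chromatin of the dissected cerebellum was fixed, sheared and immunoprecipitated with an H3K27me3 antibody. Each P7 replicate pooled more animals than each P14 replicate, so pool size and stage cannot be told apart. Of the other 8 libraries, the 3 of P60 cerebellum served as a later readout and the 5 of the Kdm6b-WT and Kdm6b-cKO groups were not used. The values came from 1 peak list per library. Around each transcription start site (TSS) a window of 3 kb on each side was drawn, and promoter coverage was its percent under peaks, taken at the most covered window of each of 21938 protein-coding genes. That window need not lie at the 5′-most TSS of a gene. A coverage of 0 says that no peak was called, not that the mark was absent.

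Polycomb repressive complex 2, whose catalytic subunit is EZH2 or EZH1, trimethylates H3K27 at CpG-rich promoters of genes that a cell type keeps silent, and the demethylases KDM6A and KDM6B remove the mark. In the mouse cerebellum, granule neuron progenitors multiply in the external granule layer during the first postnatal weeks under the mitogen sonic hedgehog. Their daughters leave the cell cycle, migrate inward, and switch on the receptors and channels of mature granule neurons. The P7 tissue holds many progenitors, while by P14 the granule cells are largely postmitotic. Granule neurons are by far the most numerous cells of the tissue, but whole cerebellum also holds Purkinje cells, interneurons and glia, so a change in the share of a cell type and a change of the mark within cells cannot be told apart.

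The P14 lists placed a smaller part of their covered length at promoters than the P7 lists. Promoter windows held 44.8, 46.3 and 47.2% of the covered length in P14 replicates 1, 2 and 3, against 49.7, 54.1 and 54.7% in the P7 replicates. The groups did not overlap, and the difference was -6.70 percentage points (two-sided exact permutation p = 0.1, the smallest that 3 against 3 allows). Gene bodies held 17.0 ± 0.0422% at P14 and 14.8 ± 0.906% at P7, and intergenic sequence 36.9 ± 1.17% at P14 and 32.4 ± 1.82% at P7 (SD, n = 3 each), again with no overlap (exact p = 0.1 each). The covered sequence at P14 was also richer in CpG, with 40.7 ± 1.78 in the P14 and 36.6 ± 2.87 in the P7 libraries (CpG per kb, SD, n = 3 each, exact p = 0.1). Peaks covered 3.62, 7.79 and 9.26 Mb in the P14 libraries, against 15.2, 8.40 and 7.38 Mb in the P7 libraries. These overlapped, as did the numbers of marked genes, which were 2654, 3625 and 3834 at P14 and 5212, 4044 and 3506 at P7 (exact p = 0.5 and 0.3). P14 replicate 1, with a median peak width of 269 bp, and P7 replicate 1, with 15388 peaks, stood apart from their groups. Read depth is unknown, and its part in these differences was not tested. Coverage is therefore given raw and relative, the second in multiples of the library mean, which is the average coverage of the 21938 genes in that library.

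**Figure D1:**
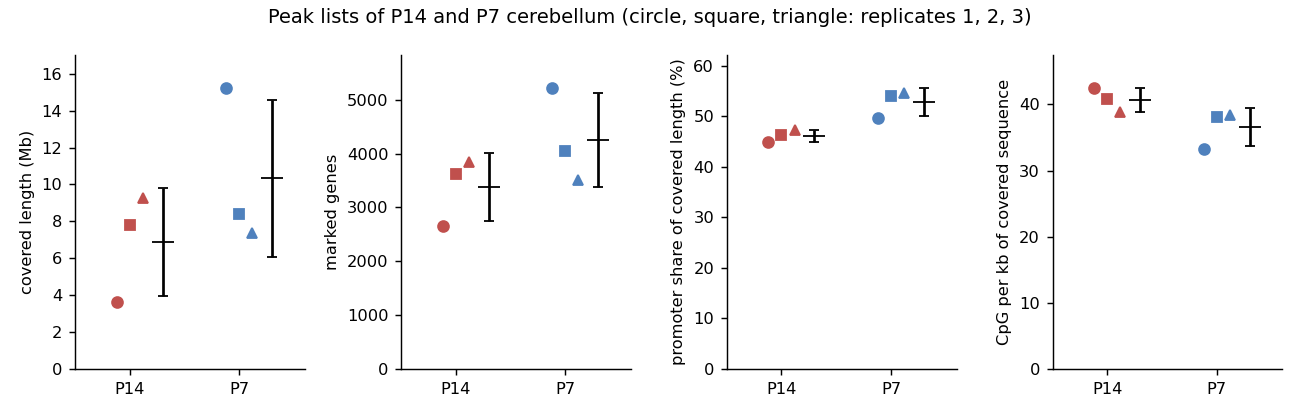
Covered length in Mb, number of marked genes, promoter share of covered length in percent and CpG per kb of covered sequence, for P14 (left) and P7 (right). Symbols are libraries, and the mark and bar beside them are the mean and SD of 3 libraries; covered length and marked genes overlap between the stages, while promoter share and CpG density do not.

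Regions whose peaks were lost by P14 lay mostly at promoters, and regions whose peaks were gained lay mostly elsewhere. Merging the peaks of the 6 libraries gave 28577 regions, of which 368 had a peak in all P14 libraries and no P7 library (gained), 650 had one in all P7 libraries and no P14 library (lost), and 3598 had one in all 6 (kept). Promoter windows held 22.3% of the gained, 60.6% of the lost, 55.3% of the kept and 26.6% of all regions. The peaks themselves chose these regions, so the counts are a description with no test. Which set was the larger depended on the processing, with 477 gained and 115 lost regions once lists were reduced to equal covered length, 149 and 96 without peaks under a −log10 q of 4, and 1010 and 686 without P14 replicate 1. Lost regions numbered 1489 without P7 replicate 3 and 1015 without P14 replicate 3, and gained regions 587, 579 and 852 without P7 replicate 1, P14 replicate 2 and P14 replicate 3. Most regions were seen in few libraries: 7144 were in 1 P14 library alone and 7546 in 1 P7 library alone. Gained regions were narrow, with a median width of 472.5 bp, against 1304.5 bp for lost and 1857 bp for kept regions. Within its own library the strongest peak of a lost region had a median −log10 q at percentile 62.7, 42.7 and 34.9 in P7 replicates 1, 2 and 3, while kept regions stood at 85.6, 78.0 and 71.6. Gained regions stood at percentile 57.1, 63.9 and 62.3 in the P14 replicates, and kept regions at 55.7, 76.5 and 80.6. Few gained or lost regions lay close to a kept region: 3.26% of gained and 4.92% of lost regions were within 5 kb of one.

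Sequence from the widest region of a class is shown as an example of the CpG content of single regions. A lost promoter and a lost intergenic region, a gained promoter and a gained intergenic region are given on the plus strand of GRCm38, each about the centre of the region, in lower case with every CG in capitals. The C1qtnf4 stretch is chr2:90887194-90887493, intronic in that gene and holding 7 CG in 300 bases. The stretch nearest to Bhlha9 is chr11:76666067-76666366, outside any annotated gene, with 10 CG. The Erbin stretch is chr13:103920515-103920759, the 245 bases next to the first exon on its upstream side, and holds 39 CG. The stretch nearest to Bcas1 is chr2:170287654-170287953, outside any annotated gene, with 9 CG.
lost, C1qtnf4: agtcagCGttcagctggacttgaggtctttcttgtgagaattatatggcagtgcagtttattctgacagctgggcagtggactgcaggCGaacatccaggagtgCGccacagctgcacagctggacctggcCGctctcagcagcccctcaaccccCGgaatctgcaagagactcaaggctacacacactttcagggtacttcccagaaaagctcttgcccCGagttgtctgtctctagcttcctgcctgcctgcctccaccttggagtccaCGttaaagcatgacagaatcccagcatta
lost, near Bhlha9: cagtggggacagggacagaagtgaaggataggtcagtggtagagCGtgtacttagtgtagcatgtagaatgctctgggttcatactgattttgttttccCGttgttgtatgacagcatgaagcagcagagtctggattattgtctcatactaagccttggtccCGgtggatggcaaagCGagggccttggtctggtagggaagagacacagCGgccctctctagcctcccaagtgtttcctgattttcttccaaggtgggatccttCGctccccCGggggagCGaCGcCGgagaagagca
gained, Erbin: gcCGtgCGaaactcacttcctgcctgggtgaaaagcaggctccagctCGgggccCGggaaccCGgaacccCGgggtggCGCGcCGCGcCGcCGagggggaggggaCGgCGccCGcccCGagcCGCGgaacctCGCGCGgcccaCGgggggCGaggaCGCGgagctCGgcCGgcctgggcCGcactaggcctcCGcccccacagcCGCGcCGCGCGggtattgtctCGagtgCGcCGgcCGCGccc
gained, near Bcas1: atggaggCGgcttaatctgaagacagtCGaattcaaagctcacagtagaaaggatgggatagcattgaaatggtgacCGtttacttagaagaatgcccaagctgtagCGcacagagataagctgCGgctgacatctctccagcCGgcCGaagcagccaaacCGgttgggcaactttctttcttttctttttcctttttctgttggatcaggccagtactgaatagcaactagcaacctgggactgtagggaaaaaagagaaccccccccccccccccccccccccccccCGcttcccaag

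The lost region at C1qtnf4, which encodes a secreted C1q-domain protein, was 4596 bp wide and was covered by 0 bp in each P14 library, against 3859, 1993 and 2958 bp in P7 replicates 1, 2 and 3. The next widest lost promoters were those of Camk2b, a calcium/calmodulin-dependent kinase subunit of synapses (3142 bp), and of Scrt1, a neuronal zinc-finger repressor (3076 bp). None of these 3 had a peak in any P60 library. Within gene bodies the widest lost regions lay in Lactbl1, in Grin1, which encodes the obligatory NMDA receptor subunit, and in Gm20388. The Grin1 region, 5527 bp from the nearest TSS at chr2:25310924-25313545, was covered by 2327, 2578 and 2360 bp in the P7 libraries and by 0 bp at P14.

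The widest gained promoter was that of Erbin, a scaffold protein that binds the receptor ERBB2. It was covered by 513, 1378 and 1607 bp in P14 replicates 1, 2 and 3, and by 0 bp in each P7 library. The gained promoters of Zeb2, a zinc-finger repressor with roles in neural crest and glia, and of Mdga2, a synaptic adhesion protein, followed with widths of 2280 and 2260 bp. Outside promoters the widest gained regions lay in Gpc6, Cadps2 and Scube2 and, between genes, 60741 bp from the nearest TSS of Bcas1 and 496132 bp from that of Vrk1. The Scube2 region consisted of repeat-masked sequence over 93.7% of its length. Repeat-masked sequence was a feature of the gained set outside promoters, with a median of 46.0% of the region in gene bodies and 43.0% between genes, against 11.8 and 14.9% for lost regions of the same classes. The sources used here do not say how reads with several alignments were treated.

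Gained promoter regions were rich in CpG, and gained regions elsewhere were poor in it. The 82 gained promoter regions had a median of 52.2 CpG per kb, against 38.2 in the 394 lost and 46.3 in the 1989 kept promoter regions. CpG-island-like composition (GC of 50% or more, observed over expected CpG of 0.6 or more) was met by 47.6% of gained, 25.9% of lost and 37.2% of kept promoter regions. Gained regions in gene bodies had a median of 10.7 CpG per kb and gained intergenic regions 10.3. The letters CAGCTG, an E-box of the kind bound by proneural factors, occurred on either strand in the central 300 bp of 16.6% of gained, 16.6% of lost, 16.1% of kept and 15.9% of all regions. The letters CCTGCTG or the reverse complement CAGCAGG, the core of the motif bound by Zic factors, occurred in 8.42% of gained, 13.2% of lost, 12.8% of kept and 10.3% of all regions. A match is a description of these letters and not a binding site.

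The P60 libraries were not used to choose the regions and gave a later readout. Their median peak widths were 134, 149 and 410 bp in P60 replicates 1, 2 and 3. Mean promoter coverage was 0.418, 0.345 and 1.34%, against 2.44 ± 1.06% at P14 (SD, n = 3). Repeat-masked sequence made up 46.4, 38.2 and 20.9% of their covered length. A missing P60 peak therefore does not show that the mark was absent. Gained regions had a P60 peak in 29.9, 19.3 and 22.0% of cases in P60 replicates 1, 2 and 3, lost regions in 6.31, 4.46 and 6.31%, and kept regions in 54.9, 51.6 and 71.1%. Over all regions the shares were 21.02, 15.3 and 19.1%. Gained promoters stood above their own background, with 40.2, 26.8 and 48.8% against 20.5, 17.3 and 29.3% of all promoter regions. Lost promoters were below it, with 1.78, 1.02 and 2.54%. Gained regions in gene bodies, at 27.5, 14.2 and 10.0%, and between genes, at 26.5, 19.3 and 17.5%, stood beside 20.04, 14.4 and 15.3% and 21.8, 14.6 and 15.4% of all regions of those classes. These shares are given without a test, since regions of 1 library share its depth.

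**Figure D2:**
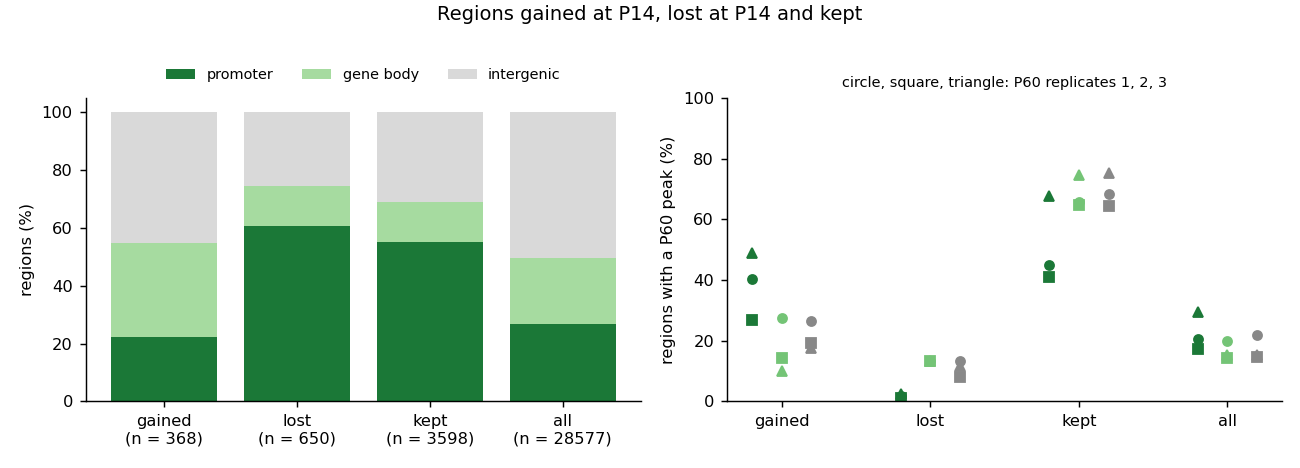
Left, percent of gained, lost, kept and all regions that lie at promoters, in gene bodies or between genes. Right, percent of the same regions with a peak in P60 replicates 1, 2 and 3 (symbols), by class (dark green promoter, light green gene body, grey intergenic); lost promoters sit between 1.02 and 2.54%, below all other sets, and gained promoters between 26.8 and 48.8%.

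At promoters, coverage fell at P14 for many more genes than it rose, and the split was less one-sided once coverage was divided by the library mean. Of the 21938 genes, 6249 were marked in at least 1 of the 6 libraries and 4761 in at least 2. On these 4761, limma with Benjamini-Hochberg adjustment found raw coverage lower at P14 for 131 genes and higher for 2, which are 2.75 and 0.042% of the genes tested and together 2.79%. Relative coverage was lower for 182 and higher for 53 genes, or 3.82 and 1.11% and together 4.94%. The median raw difference over all genes tested was -6.40 percentage points, and on the relative scale it was 0.04 library means, so the share of lower calls was 98.5% raw and 77.4% relative. With rank percentiles in place of raw coverage 378 genes were lower and 107 higher (77.9% lower), and with every list reduced to the same covered length 218 were lower and 77 higher (73.9%). Without peaks under a −log10 q of 2, raw coverage was lower for 104 genes and higher for 0, while on the relative scale limma called 0 genes (454 lower and 181 higher at an unadjusted p under 0.05). Without peaks under 4 it called 0 genes on either scale (162 lower and 21 higher raw, and 52 and 23 relative, at an unadjusted p under 0.05). Of the 131 genes lower on the raw scale, 112 were also lower on the relative scale. The P14 libraries lay below all P7 libraries for 29.2% of the genes on the raw and 14.8% on the relative scale, and above them for 2.08 and 10.2%. No gene passed on the raw scale once any 1 of the 6 libraries was left out. In those 6 fits limma gave between 646 and 1249 lower and between 32 and 229 higher genes at an unadjusted p under 0.05. Each of the 131 differences stayed below 0, but these genes were called on the same libraries, so their sign is no separate evidence. On the relative scale 182 lower and 163 higher genes passed without P14 replicate 1, 132 and 59 without P14 replicate 3, and 0 without any of the other 4 libraries, where between 530 and 834 lower and between 182 and 326 higher genes had an unadjusted p under 0.05.

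**Figure D3:**
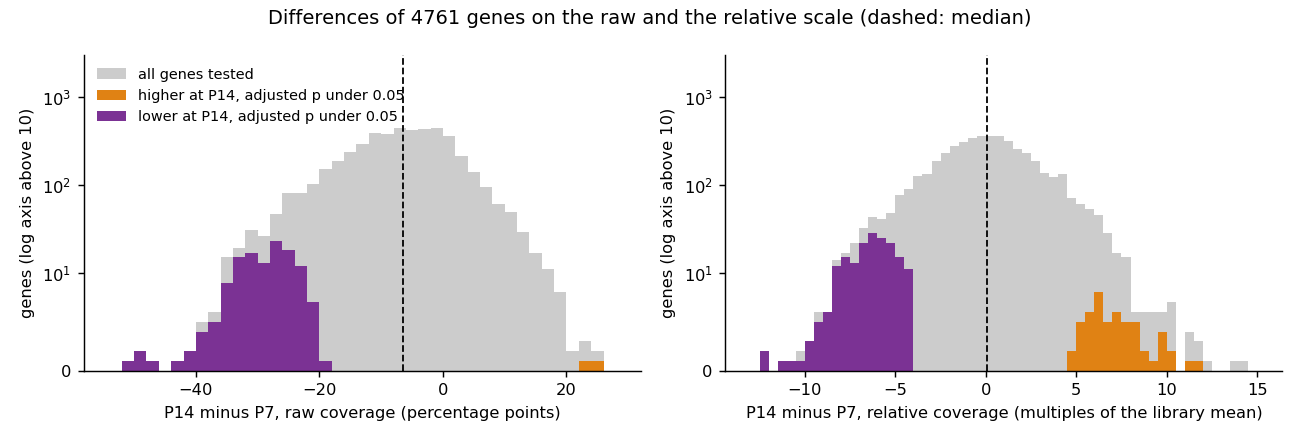
Number of genes (log axis above 10) by the P14 minus P7 difference in raw coverage in percentage points (left) and in relative coverage in library means (right). Grey bars are all 4761 genes, violet and orange bars are those lower and higher at P14 by limma, and the dashed line is the median, which is -6.40 on the left and 0.04 on the right.

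Of the 12 genes with the largest falls that passed, 4 had no peak in any P14 library and 5 had one in all 3. Ccdc106 (chr7:5020553-5060785), which encodes a coiled-coil protein, had 6.12, 2.95 and 10.9% raw coverage in P14 replicates 1, 2 and 3, against 82.7, 46.8 and 44.7% in the P7 replicates. Every P14 library lay far below every P7 library, by -51.4 ± 9.93 percentage points (SE, limma adjusted p = 0.0382). The Ccdc106 window lay at chr7:5056152, an internal TSS. Nptx1 (chr11:119538719-119547753), a secreted pentraxin that gathers AMPA receptors at synapses, had 0, 7.80 and 16.5% at P14 and 57.8, 57.6 and 54.6% at P7. Its difference was -48.6 ± 6.11 points (SE, limma adjusted p = 0.0228). Kcnk12, a potassium channel subunit of the leak type, had 0, 0 and 4.50% at P14 and 58.6, 47.7 and 43.2% at P7, and only P14 replicate 3 kept a small peak.

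Cacna1i (chr15:80287238-80398279), a T-type calcium channel, had 0% in each P14 library and 47.9, 37.7 and 44.0% at P7, a difference of -43.2 ± 4.94 points (SE, limma adjusted p = 0.0228). C1qtnf4, Insyn1, which encodes an inhibitory synapse protein, and Car11, a carbonic anhydrase-related protein, also had 0% in all P14 libraries and between 30.5 and 57.0% in the P7 libraries. Such a gene has no spread at P14, and this held for 57 of the 131 genes, so its test rests on the spread at P7 and on that borrowed from other genes. The other large falls were those of Rara, a retinoic acid receptor, Rgl3, Fstl4, Plekhg3 and Slc12a5, and ranged between -46.5 and -38.1 points. For the 250 bases upstream of the Cacna1i TSS (chr15:80286988-80287237, plus strand, the gene's strand), the sequence with CG in capitals is shown as that of the largest fall without a P14 peak among genes that passed, beside the 250 bases upstream of Cd24a (chr10:43578034-43578283, also plus strand), the larger of the 2 rises that passed. The first held 16 CG and the second 5. These bases do not represent the tested windows, which held 36.2 CpG per kb for Cacna1i and 39.3 for Cd24a.
Cacna1i upstream: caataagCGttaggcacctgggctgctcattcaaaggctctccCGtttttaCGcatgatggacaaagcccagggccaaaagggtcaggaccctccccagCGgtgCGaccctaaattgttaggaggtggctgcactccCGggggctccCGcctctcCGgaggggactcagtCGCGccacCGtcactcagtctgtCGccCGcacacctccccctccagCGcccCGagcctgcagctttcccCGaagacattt
Cd24a upstream: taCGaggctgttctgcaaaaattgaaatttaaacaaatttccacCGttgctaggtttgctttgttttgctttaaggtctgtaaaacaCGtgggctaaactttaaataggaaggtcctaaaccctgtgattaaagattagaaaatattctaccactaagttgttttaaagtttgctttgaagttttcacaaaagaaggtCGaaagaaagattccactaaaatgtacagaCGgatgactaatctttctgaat

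Only Cd24a and Btbd1 were higher at P14 on the raw scale. Cd24a (chr10:43578284-43584265), a small surface glycoprotein of immature neurons, had 18.2, 28.1 and 30.1% at P14 and 0% in each P7 library, a difference of 25.5 ± 4.98 points (SE, limma adjusted p = 0.0382). Btbd1, which encodes a BTB-domain protein, had 17.0, 23.7 and 25.8% at P14 and 0% in each P7 library (22.2 ± 4.58 points, SE, limma adjusted p = 0.0429). At P60 Cd24a had 5.72, 0 and 12.1%, while Btbd1 had 0% in all 3 libraries. On the relative scale the largest rise among genes that passed was that of Tox3, an HMG-box factor, with 14.7 ± 3.68 library means at P14 and 2.78 ± 1.46 at P7 (SD, n = 3 each, limma adjusted p = 0.0175). Its raw coverage was 23.6, 37.5 and 38.5% at P14 and 25.3, 7.65 and 5.35% at P7, and P7 replicate 1, the list with the largest cover, overlapped the P14 libraries. Pou3f3, a POU-domain factor of neural progenitors, Cacng4, an AMPA receptor auxiliary subunit, Glra1, a glycine receptor subunit, and St8sia2, which adds polysialic acid to the adhesion molecule NCAM, were higher on the relative scale only, with raw adjusted p between 0.0988 and 0.145.

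**Figure D4:**
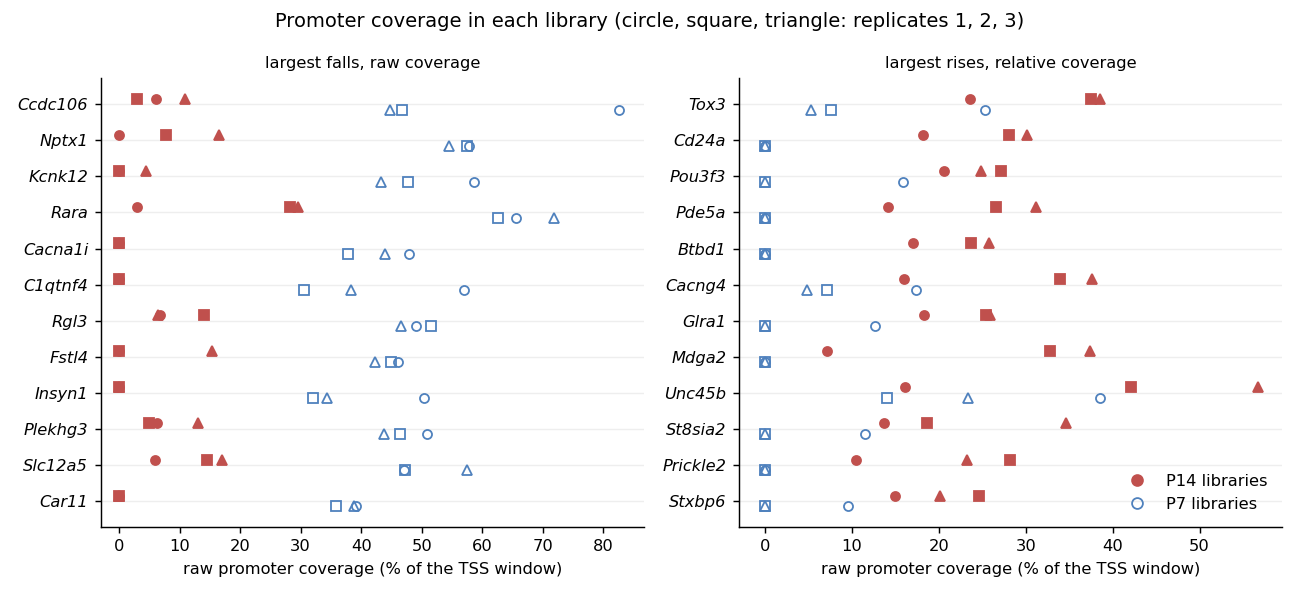
Raw promoter coverage in percent of the TSS window for the 12 genes with the largest raw falls (left) and the 12 with the largest relative rises (right), among genes that passed without overlap between the stages on that scale. Filled red symbols are the P14 libraries and open blue symbols, drawn just below them, the P7 libraries; on the left every P14 value lies below every P7 value, while on the right Tox3, Cacng4 and Unc45b overlap between the stages on this raw scale.

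The genes called lower seldom had a peak in the P60 lists, whose mean promoter coverage was only 0.418, 0.345 and 1.34%. Of the 131 genes, 116 (88.5%) had no peak in any P60 library, against 45.5% of all genes tested, and 3 (2.29%) had one in all 3, against 16.5%. Of the 53 genes with higher relative coverage, 10 (18.9%) had no P60 peak and 14 (26.4%) had one in all 3 P60 libraries. Median raw coverage of the 131 genes was 1.23% at P14 and 31.1% at P7, and that of the 53 genes 19.1% at P14 and 2.87% at P7, differences by which these genes were called. The window held a median of 29.2 CpG per kb for the 131 lower genes, 34.5 for the 53 higher genes and 23.5 for all tested. In the 300-base RefSeq promoters, matched by symbol for 95 of the 131 lower, 40 of the 53 higher and 3503 of the 4761 tested genes, CCTGCTG or CAGCAGG occurred in 12.6% of lower, 7.50% of higher, 12.3% of tested and 10.4% of all promoters. Windows of neighbouring genes can overlap, and 10 of the 131 lower and 0 of the 53 higher genes shared bases with another gene of their set.

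Around the start site, bases downstream of the TSS were covered more than upstream bases in each of the 6 libraries, for both sets of genes and for all genes tested. Both sets were called on coverage of these same libraries and windows, so the contrast between the stages follows from the choice and is a description only. Over the 131 lower genes, at most 4.88, 13.1 and 19.9% of the genes were covered at any 100-bp bin in P14 replicates 1, 2 and 3, against 81.5, 69.3 and 70.6% in the P7 replicates. The P7 maxima lay 750, 550 and 550 bp downstream. Over the 53 higher genes the maxima were 32.5, 63.3 and 69.1% at P14 and 30.0, 9.81 and 7.79% at P7. For these 53 genes the maximum of P14 replicate 1 lay 50 bp upstream of the TSS and those of the other 5 libraries downstream. In P7 replicate 2, downstream bases were covered in 37.7% and upstream bases in 23.8% of the lower genes on average, against 19.9 and 11.9% of all genes tested.

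**Figure D5:**
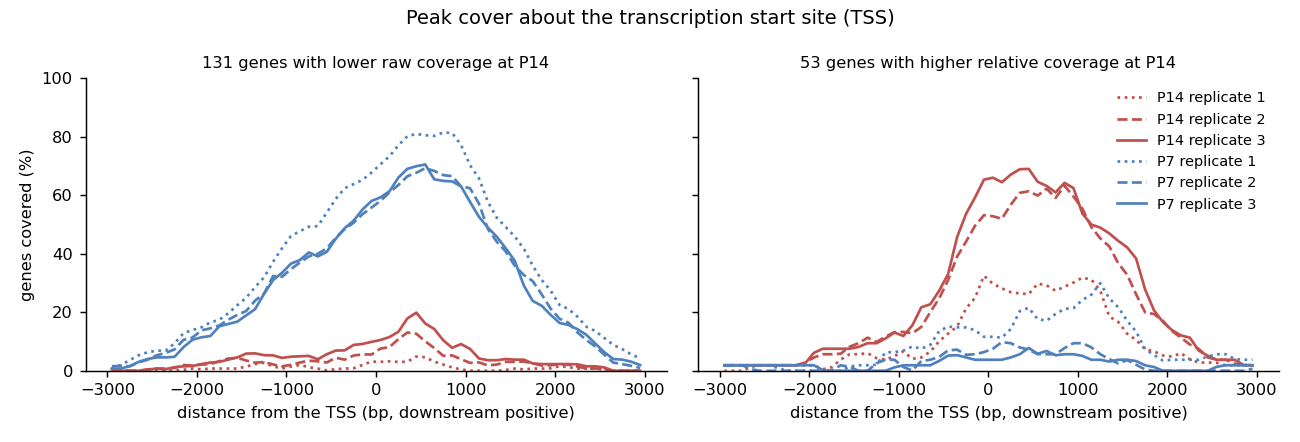
Percent of genes under a peak in 100-bp bins by distance from the TSS in bp, for the 131 genes lower at P14 on the raw scale (left) and the 53 genes higher on the relative scale (right), 1 line per library (P14 red, P7 blue). On the left the P7 lines reach between 69.3 and 81.5% and the P14 lines between 4.88 and 19.9%. Both sets were chosen by their coverage in these libraries, so the contrast between the stages is no separate evidence.

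Of the 30 listed genes of mature granule neurons, 18 were tested, and raw coverage was lower for 6 (Nptx1, Slc12a5, Grm4, Rbfox3, Car4 and Wnt7a) and higher for 0, against 2.75 and 0.042% of all genes tested. On the relative scale 4 were lower and 0 higher, against 3.82 and 1.11% of all genes tested. The median of the 18 differences was -16.1 points raw and -3.58 library means relative, against -6.40 and 0.04 over all genes tested. All 18 lay below 0 on both scales, as did 79.2% of all genes tested on the raw and 49.3% on the relative scale. The mean coverage of the list was 0.584, 4.14 and 4.64% in P14 replicates 1, 2 and 3, against 19.6, 14.7 and 13.5% in the P7 replicates, so the groups did not overlap. The list holds genes that the study picked on these samples, Grin2c and Grm4 among them, so its direction is not independent evidence.

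Grm4 (chr17:27422387-27521403), a presynaptic metabotropic glutamate receptor of parallel fibres, had 0, 10.4 and 0% raw coverage in P14 replicates 1, 2 and 3, against 44.7, 27.03 and 42.4% in the P7 replicates. The difference of -34.6 ± 6.30 points passed (SE, limma adjusted p = 0.0334). Slc12a5, which encodes the neuronal chloride exporter KCC2, had 6.02, 14.5 and 17.0% at P14 and 47.1, 47.3 and 57.4% at P7, and its fall passed on the raw scale (limma adjusted p = 0.0309) but not on the relative one (0.0784). Rbfox3, the splicing factor known as NeuN, also passed on the raw scale alone, with 1.72, 14.5 and 10.4% at P14 and 42.1, 39.98 and 36.8% at P7 (limma adjusted p = 0.0333 raw, 0.0557 relative). The Rbfox3 window lay at chr11:118569910, an internal TSS of the gene (chr11:118489762-118911597, minus strand). Those of Grm4 (chr17:27513406) and Slc12a5 (chr2:164967983) also lay at an internal TSS. Grin2c, the NMDA receptor subunit of mature granule neurons, had 0, 20.03 and 21.2% at P14 and 34.3, 29.7 and 28.3% at P7, groups that did not overlap but a difference that did not pass (limma adjusted p = 0.169). Kcnk9, a leak potassium channel, had 4.999, 25.2 and 26.6% at P14 and 62.2, 51.9 and 47.9% at P7 (limma adjusted p = 0.0559). Gabra6, the granule neuron GABA receptor subunit, was at 0% in all 9 libraries of the age series.

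Several ion channel genes were lower at P14, among them calcium and HCN channels. Of 23 tested sodium, calcium and HCN channel genes, raw coverage was lower for 5 and higher for 0, and relative coverage lower for 4 and higher for 1, where 2.75 and 0.042% of all genes tested passed raw and 3.82 and 1.11% relative. The median raw difference was -13.9 points. Cacna1a, the P/Q-type calcium channel, had 0% at P14 in each library and 29.9, 25.2 and 23.0% at P7 (limma adjusted p = 0.0333). The Cacna1a window lay at chr8:84601431, an internal TSS of the gene (chr8:84388440-84640246). Hcn2, a hyperpolarization-activated pacemaker channel, had 0% at P14 in each library and 40.6, 24.2 and 30.4% at P7 (limma adjusted p = 0.0333). Cacna1g, another T-type channel, had a difference of -30.4 points (limma adjusted p = 0.0333). Of 50 tested potassium channel genes 3 were lower raw (Kcnk12, Kcnc4 and Kcnj12) and 0 higher, against 2.75% lower of all genes tested, with a median of -10.8 points. On the relative scale that median was -0.34, and 3 were lower (Kcnk12, Kcnj12 and Kcna2).

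Receptor, synapse and axon guidance lists held few called genes, and 2.75% of all genes tested were lower raw and 3.82% relative. Of 18 tested glutamate receptor genes Grm4 alone was lower raw, and it was also lower on the relative scale. Of 9 tested GABA and glycine receptor genes none was lower on either scale, and Glra1 was higher on the relative scale. Of 25 tested synaptic vesicle and release genes Syngr3 was lower raw, and Syngr3, Rims4 and Syt7 were lower on the relative scale. Of 39 tested axon guidance genes Nrp2, a semaphorin co-receptor, and Efna1, an ephrin ligand, were lower on both scales. The medians of these 4 lists were -9.67, -2.31, -7.43 and -7.09 points raw, against -6.40 for all genes tested, and -1.55, 0.40, -1.34 and -0.07 library means relative, against 0.04. The median of the GABA and glycine receptor list thus differed in sign between the scales.

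Progenitor and hedgehog target genes had a median difference above that of all genes tested. Of 19 tested genes none passed on the raw scale, while on the relative scale 4 were higher (Mycn, Atoh1, Cdk6 and Sox3) and 0 lower, against 1.11 and 3.82% of all genes tested. The study picked Mycn on these samples as an example of a gain, and the list was chosen with earlier results known. The direction of this list is therefore not independent evidence. The median difference was -1.14 points raw and 3.64 library means relative, against -6.40 and 0.04 for all genes tested. Other lists also lay above all genes tested, so this was not particular to progenitor genes. Relative medians were 4.63 for SoxB, 4.23 for cell-cycle inhibitor, 2.35 for Hox and 2.15 for forebrain and midbrain factor genes, while mature granule neuron genes stood at -3.58. Raw medians were 0.58 for immature granule neuron genes and 0.125 for granule lineage factors. Mycn (chr12:12936093-12941914), a Myc-family factor induced by sonic hedgehog in progenitors, had 4.63, 26.5 and 18.4% at P14 and 0% in each P7 library, a difference of 16.5 ± 5.84 points (SE, limma adjusted p = 0.143 raw, 0.0420 relative). Atoh1 (chr6:64729125-64731245), the proneural factor that specifies the granule lineage, had 11.3, 27.2 and 35.4% raw coverage at P14 and 22.1, 12.1 and 10.6% at P7. These raw values overlapped, whereas relative coverage was 9.88 ± 0.858 library means at P14 and 3.58 ± 0.255 at P7 (SD, n = 3 each, limma adjusted p = 0.0380). Gli1, the transcriptional effector and target of hedgehog signalling, had 17.4, 27.9 and 30.3% at P14 and 30.9, 28.6 and 19.2% at P7, with no difference that passed (limma adjusted p = 0.923 raw, 0.222 relative).

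Other progenitor genes did not pass on either scale. Ccnd1, the D-type cyclin that drives progenitor division, had 11.8, 34.2 and 63.1% at P14 and 69.6, 52.9 and 43.6% at P7 (limma adjusted p = 0.351). Hes5 and Id3, targets of Notch and BMP signalling that hold back differentiation, had 17.4 ± 11.6 and 23.1 ± 9.17% at P14, against 40.5 ± 7.76 and 49.8 ± 20.1% at P7 (SD, n = 3 each, limma adjusted p = 0.117 and 0.168). Sox2, a SoxB factor of stem cells and glia, had 36.4 ± 13.5% at P14 and 40.4 ± 4.53% at P7 (limma adjusted p = 0.772), while its relative Sox3 was higher on the relative scale, with 6.09 ± 1.02 library means at P14 and 0.553 ± 0.958 at P7 (SD, n = 3 each, limma adjusted p = 0.0316). Among 4 tested cell-cycle inhibitor genes Cdkn2a, which encodes INK4A and ARF, was higher on the relative scale (limma adjusted p = 0.0466), where 1.11% of all genes tested were higher. Its raw values overlapped, with 16.3, 32.1 and 26.8% at P14 and 12.1, 11.8 and 16.6% at P7 (limma adjusted p = 0.247).

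Lineage and signalling lists held 0 or 1 called gene in each direction on each scale. Of all genes tested 2.75% were lower raw and 3.82% lower and 1.11% higher relative, and nothing is read from these small counts. Of 64 tested transcription factors of other lineages Cdx1 was lower raw and Foxf1 higher on the relative scale. Of 39 Hox genes none passed raw and Hoxa3 was lower on the relative scale. Of 16 tested granule lineage factors Atoh1, and of 5 SoxB genes Sox3, was higher on the relative scale. None of 6 immature granule neuron genes, 34 monoamine, acetylcholine and opioid receptor genes, 25 collagen genes, 15 clustered protocadherins or 11 ribosomal protein genes passed on either scale, and of 19 tested olfactory receptor genes Olfr641 was higher on the relative scale. Of 65 tested ligands and antagonists of the Wnt, FGF, BMP and hedgehog pathways, Wnt7a alone was lower, on both scales. Of 18 tested Notch pathway, Id and Hes genes, the Notch ligand Dll4 was lower on both scales, with 0% in each P14 library and 39.96, 22.9 and 22.5% at P7. Among the 14 tested retinoic acid genes Rara was lower raw and Rxra higher on the relative scale, both of them receptors. Rara (chr11:98927818-98974942) had 2.97, 28.3 and 29.5% at P14 and 65.6, 62.7 and 71.9% at P7, in a window at an internal TSS (chr11:98960412).

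Of 35 listed H3K27 methylation enzymes and Polycomb subunits, 12 were marked in at least 1 of the 6 libraries, against 6249 of all 21938 genes. The list averaged 3.83 ± 1.45% at P14 and 7.80 ± 1.78% at P7 (SD, n = 3 each), above the mean of all genes. Ezh2 had 0% in all 9 libraries of the age series, and Kdm6b had a peak only in P7 replicate 1 among the 6 libraries (9.18%). Of 11 tested genes of this group Kdm2b, a CpG-island-binding Polycomb component, was lower on the relative scale (limma adjusted p = 0.0329) with 0% in each P14 library and 24.1, 15.6 and 18.3% at P7. The Kdm2b window lay at chr5:122951990, an internal TSS of the gene. Ribosomal protein genes, which every cell uses, averaged 0.401 ± 0.0969% at P14 and 1.09 ± 0.5995% at P7 (SD, n = 3 each), below the 2.44 ± 1.06 and 4.11 ± 1.39% of all genes.

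The tissue label was checked against transcription factors of the granule lineage and of other brain regions. Zic1, a zinc-finger factor of granule neurons, had 0% in all 9 libraries, and Neurod1, a factor of postmitotic granule neurons, had a peak in P7 replicate 1 alone (11.8%). All 34 forebrain and midbrain factors were tested, none passed, and their mean coverage was 23.1 ± 11.4% at P14 and 29.8 ± 8.73% at P7, against 11.6 ± 7.80 and 13.4 ± 6.38% for the granule lineage factors (SD, n = 3 each). Zic1 and Neurod1 do not stand for their list, since 23 of the 28 granule lineage factors were marked in at least 1 of the 6 libraries. Both list means lay above the 2.44 ± 1.06% at P14 and 4.11 ± 1.39% at P7 of all genes (SD, n = 3 each). Among the marker lists of other cells, Rora, a receptor of Purkinje cells that was lower on both scales, was 1 of 7 tested Purkinje genes, and none of 7 unipolar brush cell genes passed on the raw scale. The Rora window lay at chr9:69289682, an internal TSS of the gene (chr9:68653786-69388246). None of the 6 astrocyte and Bergmann glia, 8 oligodendrocyte lineage, 2 microglia, 19 interneuron and nuclear neuron or 8 endothelial and mural genes passed on either scale. Mean coverage of the Purkinje list was 1.59, 7.25 and 6.84% in the P14 libraries and 15.0, 9.54 and 7.61% in the P7 libraries, and the part of cell type shares in the changes was not tested.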

How the data were processed

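H3K27me3 ChIP-seq peak lists of P14 and P7 mouse cerebellum were analysed, with P60 as a later readout. The submitters' processing notes name FastQC for quality, Trimmomatic 0.38 for trimming, STAR 2.7.2b for alignment (mm10) and MACS2 2.1 for broad peaks, which were called 1 list per library. No input library is named. Each deposited list holds positions and values made by the authors: a score, fold enrichment (a ratio) within the library, and −log10 p and −log10 q. The lowest deposited −log10 q was near 1.00 in every list, weaker than the threshold the methods state. The deposited lists give no read counts, so depth is unknown and counting intervals are not given. −log10 q served only to rank and filter peaks.

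Promoter coverage was computed over TSS windows of 3 kb each side from GENCODE vM21 on GRCm38, for 93459 TSS of 21938 protein-coding genes, raw and divided by the library mean. Of these genes 54 share a symbol. Genes marked (1 bp or more) in at least 2 of 6 libraries were tested with limma 3.58.1 in R 4.3.3 (trend and robust variance, Benjamini-Hochberg adjusted p under 0.05). Values per library were compared with two-sided exact permutation tests. Libraries of a stage are biological replicates per the series record, and p-values measure the spread between them. The limma step was also run on simulated normal values, away from the floor of coverage and with the same spread in both stages. That run does not cover genes without a peak in a whole stage. Peaks were merged into regions where they overlapped or touched, and a region was assigned to a promoter window, else to a gene body, else to intergenic sequence. Python 3.11.15, numpy 2.4.6, scipy 1.17.1, pysam 0.24.0, samtools 1.23.1 and matplotlib 3.10.9 were used.

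The 12 largest falls and rises per scale among called genes without overlap, a set of genes fixed by name, called members of 31 gene lists (7 of them cell type markers) and the 3 widest regions per class could be named. The stages, lists and tests were chosen with earlier results of these data known. Replicate numbers did not pair the libraries. The 5 Kdm6b-WT and Kdm6b-cKO lists hold between 25 and 74 peaks past GRCm38 chromosome ends, which the other 9 do not, and were left out, so the comparison planned with them was not run. Some genes that this rule names are not reported here.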

Additional observations from a re-analysis of the deposited data

How the results depend on the processing

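The count of genes lower at P14 depended on the processing, while the called genes kept their direction under every alternative that tested them, except 1 lower gene on each scale with the 5′-most TSS alone, 1 on the raw scale with −log10 q of 4 or more, and 1 on the relative scale at the same covered length. The called genes were chosen by their difference in these same libraries, so a kept direction is no separate evidence. With the 5′-most TSS alone, 111 genes were lower and 2 higher on raw coverage, and only 112 of the 131 lower genes were tested. On raw coverage, lower and higher genes numbered 629 and 24 in a fit over all 9 libraries of the age series, 315 and 21 on the square root, 378 and 107 on rank percentiles, 300 and 12 with lists reduced to equal numbers of peaks, 218 and 77 with the same covered length, 104 and 0 with −log10 q of 2 or more, 0 and 0 with 4 or more (162 and 21 at an unadjusted p under 0.05 by limma), 110 and 4 with windows of 1 kb, and 113 and 1 with genes marked in 1 or more libraries. Without 1 library they were 0 and 0 in each case. On relative coverage the counts were 398 and 43 over all 9 libraries, 287 and 75 on the square root, 357 and 91 with the same number of peaks, 206 and 149 with the same covered length, and 0 and 0 with −log10 q of 2 or more (454 and 181 at an unadjusted p under 0.05 by limma) or 4 or more (52 and 23). Without 1 library they ranged between 0 and 182 lower and between 0 and 163 higher. The P7 and P14 numbers did not pair the libraries, since deviations of same-numbered libraries correlated at -0.181, -0.0124 and -0.0832, and a replicate block gave 49 lower and 0 higher genes raw (622 and 33 at an unadjusted p under 0.05) and 112 and 34 relative.

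Regions lost and gained numbered 378 and 250 with −log10 q of 2 or more, 96 and 149 with 4 or more, 115 and 477 with the same covered length, and 667 and 216 when peaks had to cover 50% of a region. Without 1 library, lost regions ranged between 686 and 1489 and gained regions between 437 and 1010. The P14 minus P7 difference in marked genes was -883 as deposited and 475 at the same covered length (exact permutation p = 0.2), and the promoter share of covered length stayed lower at P14 under every alternative run, by between 5.78 and 16.0 percentage points. The causes were not tested. Unknown depth limits what a missing peak means, and 3 libraries a stage cannot give an exact p below 0.1. The planned comparison with the Kdm6b-WT and Kdm6b-cKO lists was not run.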

Other observations

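By presence alone, 66 of the 4761 tested genes were marked in all P14 and no P7 libraries, 343 in all P7 and no P14 libraries, and 2009 in all 6. The genes marked in all 6 had a median coverage of 19.0% at P14 and 27.8% at P7. Peak positions of library pairs overlapped with a Jaccard index (shared over combined covered length) between 0.252 and 0.431 within P14, between 0.375 and 0.485 within P7, and between 0.152 and 0.375 across the stages. The lowest values within P14 and across the stages were those of pairs that include P14 replicate 1. The widest kept intergenic region, chr17:39843043-39848801 on GRCm38, 101719 bp from the nearest TSS (Esp38), had 102.4 CpG per kb and was covered over between 5724 and 5736 of its 5759 bp at P14 and between 5710 and 5754 bp at P7. At P60 it was covered over between 5724 and 5757 bp. Intergenic here means outside protein-coding genes, and genes of other types were not considered. Since the treatment of reads with several alignments is unknown, this near-complete cover in every library cannot be taken as a domain of the mark.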
